A study of Mus musculus with 6 samples.

Results

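The expression of 10 genes of iron storage, iron transport and haem breakdown was examined in mouse brain RNA, with the genes taken by symbol from 36758 genes measured by RNA sequencing. They are the haem oxygenase genes Hmox1 and Hmox2, the biliverdin reductase gene Blvrb, the ferritin genes Fth1 and Ftl1, the transferrin gene Trf and its receptor gene Tfrc, the iron importer gene Slc11a2, the iron exporter gene Slc40a1 and the ferroxidase gene Cp. Each symbol had 1 gene ID in the deposited table, and all 10 were found. Gene level is given as FPKM, which is fragments scaled to gene length and to library size, so levels of different genes can be set side by side.

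The 6 libraries came from brain RNA of C57BL/6J mice aged 6 months, with 3 libraries of mice given water as vehicle and 3 of mice given 0.12% trimethylamine N-oxide (TMAO) once daily, both over 16 weeks. TMAO is a small molecule that the liver makes from a product of gut bacteria. No transgene or other agent is named for either group, the sex of the mice is not given here, and no stroke surgery appears in the sample labels although the title of the series names stroke. The labels do not tie a library to an animal, and their protocol text mentions pooled RNA in an unfilled template. The p-values therefore measure how far these libraries differ from each other, and that spread may be technical.

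Cells take up iron bound to transferrin through the transferrin receptor, move it out of the endosome through the transporter encoded by Slc11a2, and store what they do not use in ferritin, a shell of heavy and light chains. Ferroportin, encoded by Slc40a1, is the exporter, and the copper enzyme ceruloplasmin (Cp) oxidises the exported iron so that transferrin can bind it. Haem oxygenase opens the haem ring and releases iron, carbon monoxide and biliverdin, which biliverdin reductases turn into bilirubin. In the brain, oligodendrocytes are rich in iron, ferritin and transferrin, astrocytes make ceruloplasmin, and macrophages and microglia recycle haem from red blood cells.

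Several of these RNAs carry iron-responsive elements, hairpins with a CAGTGN loop that iron regulatory proteins bind when iron is scarce. A hairpin in the 5′ UTR, as in ferritin and ferroportin RNA, blocks translation, and hairpins in the 3′ UTR of the receptor RNA protect it from decay. RNA levels alone therefore do not show how much ferritin protein was made. The GENCODE M21 transcripts of GRCm38 were searched on the sense strand for a C, 5 bases, CAGTGN and 5 bases that pair with the first 5. Of 21901 protein-coding genes, 294 (1.34%) held this pattern in at least 1 transcript, and among the 10 genes Fth1, Ftl1, Tfrc and Slc40a1 did. They held it in 4 of 5, 1 of 2, 1 of 3 and 1 of 4 protein-coding transcripts, in that order. The pattern is strict and can miss elements of another form. The other members, Slc11a2 among them, are thus not shown to lack an element, and the sites of a gene may not be all it has. The sites are given because they separate the ferritin and exporter RNAs from the receptor RNA by where the hairpin sits. Each line gives 29 bases, 5′ to 3′, with the 6 loop bases in capitals and the C that starts the pattern at the 7th base.
Fth1, 5′ UTR, chr19:9982732-9982760, plus strand: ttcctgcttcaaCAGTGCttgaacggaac
Ftl1, 5′ UTR, chr7:45459779-45459807, minus strand: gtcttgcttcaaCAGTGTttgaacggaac
Slc40a1, 5′ UTR, chr1:45925465-45925493, minus strand: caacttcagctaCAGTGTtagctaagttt
Tfrc site 1, 3′ UTR, chr16:32631219-32631247, plus strand: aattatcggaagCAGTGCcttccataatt
Tfrc site 2, 3′ UTR, chr16:32631598-32631626, plus strand: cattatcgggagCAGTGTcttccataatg
Tfrc site 3, 3′ UTR, chr16:32631663-32631691, plus strand: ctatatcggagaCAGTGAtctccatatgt
Tfrc site 4, 3′ UTR, chr16:32631710-32631738, plus strand: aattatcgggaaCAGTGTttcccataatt

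RNA of many cell types was present, although the labels call the cells microglia. The 10 microglia markers summed to 106 to 269 FPKM per library and the 10 neuron markers to 389 to 1053 FPKM, so no level here can be assigned to microglia, and fewer cells of a type cannot be told apart from less RNA per cell. Vehicle replicate 1 stood apart. Its log2 values had correlations of 0.804 to 0.896 with the other 5 libraries, which reached 0.959 to 0.986 with each other (across genes, and genes are not independent). In that library the neuron markers came to 389 FPKM (884 to 1053 FPKM elsewhere), its border-associated macrophage markers to 70.8 FPKM against 3.03 to 15.7 FPKM, and its neutrophil markers to 120.5 FPKM against 3.39 to 57.4 FPKM. Vessel and stroma lists were higher there too. Fibroblast markers came to 100.3 FPKM against 9.62 to 20.6 FPKM, and endothelial markers to 356 FPKM against 86.3 to 142.9 FPKM. Of the 8 endothelial markers 7 were highest in vehicle replicate 1. The other, Slco1a4, was lowest there, at 3.07 FPKM against 5.01 to 16.65 FPKM, and was higher in every TMAO library than in any vehicle library. Pericyte and smooth muscle markers came to 112.9 FPKM against 34.7 to 46.35 FPKM. The neuron markers were split, as 8 of the 10 were lowest in vehicle replicate 1 (Slc17a7 of excitatory neurons at 14.5 FPKM against 151 to 185 FPKM) and 2 of inhibitory neurons were highest, Gad1 and Gad2 (Gad2 at 50.2 FPKM against 20.9 to 27.5 FPKM). Vehicle replicate 2 had the next highest sums of the macrophage and neutrophil lists. Differences of the 10 genes are given with and without vehicle replicate 1. Choroid plexus, an abundant source of Trf RNA and of Cp, was nearly absent, with a summed level of its 7 markers at 1.53 to 3.69 FPKM in vehicle, against 1.39 to 1.81 FPKM in TMAO. Its defining gene Ttr was at 0.213 to 1.89 FPKM, and Folr1 was at 0 in 1 library and at most 0.134 FPKM in the others.

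The 10 genes spanned a wide range of levels. Fth1 was the highest and Ftl1 the next in all 6 libraries, and Slc40a1 was the lowest in all 6. In rank among all genes Fth1 stood between 22 and 40 and Ftl1 between 26 and 140. Below the ferritins the order changed with the library. Trf took rank 3 in 5 libraries. Hmox1 took rank 3 in vehicle replicate 1, rank 4 in vehicle replicates 2 and 3 and TMAO replicate 2, and rank 6, below Hmox2, in TMAO replicates 1 and 3. The neighbours Tfrc and Hmox2 overlapped in vehicle, and so did Cp, Slc11a2 and Blvrb there.

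**Figure D1:**
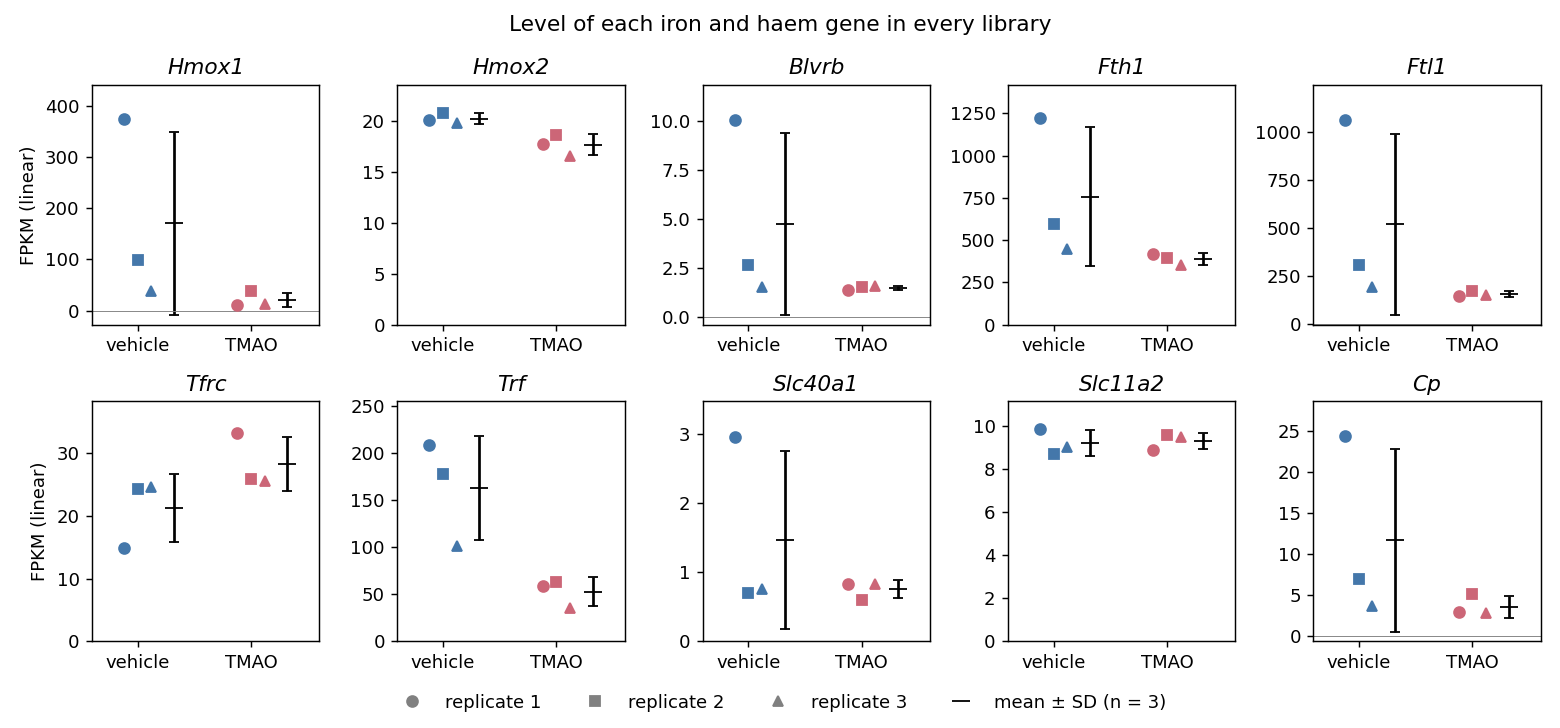
FPKM (linear axis) of each of the 10 genes in the 3 vehicle (blue) and 3 TMAO (red) libraries, with the mean and SD of each group in black. Vehicle replicate 1 (circle) is the highest library for Hmox1, Blvrb, Fth1, Ftl1, Slc40a1 and Cp, at 375, 10.1, 1223, 1061, 2.97 and 24.4 FPKM. It is also the highest, by a smaller step, for Trf at 209 FPKM and Slc11a2 at 9.90 FPKM, and the lowest for Tfrc, at 14.9 FPKM.

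In the comparison of TMAO with vehicle, Hmox1, Hmox2, Fth1, Ftl1 and Trf had lower values in every TMAO library than in any vehicle library, and Tfrc had higher values in every TMAO library. Of the 9 members tested, 7 were lower in TMAO, where 53.2% of all 14206 genes tested were lower, and 2 were higher. Their median log2 difference was -0.90, against -0.027 over all genes tested. No member passed an adjusted p of 0.05 by limma on log2(FPKM + 1), and neither did any other gene (0 of 14206, 0%), with a smallest adjusted p of 0.404. At an unadjusted p under 0.05 there were 2 members, Hmox1 and Trf, where 12.1% of all genes tested (1712, of which 1025 lower and 687 higher) met that rule and 7.22% met it as lower, the direction of both members. After median scaling these were 769 lower and 969 higher, with the same 2 members. Groups did not overlap in 6 members, 5 lower and 1 higher, where 17.5% of all genes were lower without overlap and 12.1% higher. Without vehicle replicate 1 the same counts of 5 and 1 stood against 21.7% and 15.6% of all genes, and the members' median was -0.42 against -0.022. Slc40a1 reached 1 FPKM in 1 library and was not tested.

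**Figure D2:**
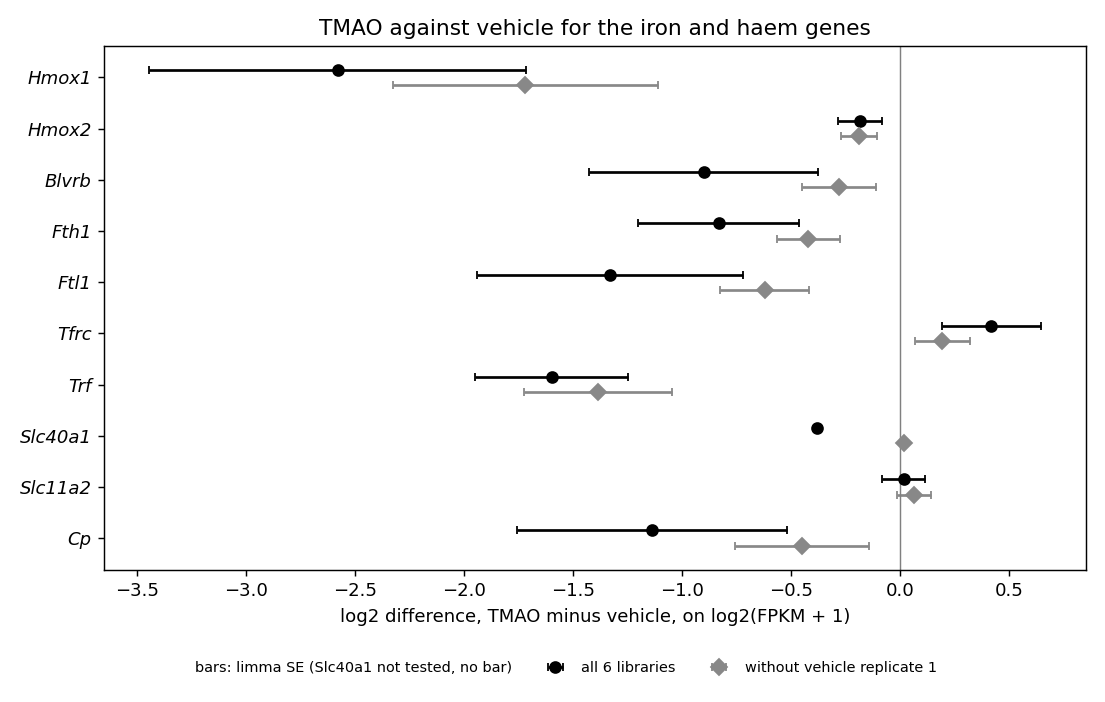
Log2 difference of TMAO minus vehicle on log2(FPKM + 1) for each gene, with all 6 libraries (black) and without vehicle replicate 1 (grey), and limma SE as bars. Hmox1 and Trf lie farthest below 0 in both, at -2.58 and -1.60 and then at -1.72 and -1.39, while Slc40a1 moves from -0.38 to 0.018.

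Haem breakdown separated into an inducible gene with a wide spread and a constitutive gene with a narrow one. Hmox1, the inducible haem oxygenase, was at 375, 98.2 and 39.2 FPKM in vehicle replicates 1 to 3 and at 11.5, 37.3 and 13.7 FPKM in TMAO replicates 1 to 3. The groups only just failed to overlap, as TMAO replicate 2 lay next to vehicle replicate 3. The group levels were 171 ± 180 and 20.8 ± 14.3 FPKM (SD, n = 3 each), and the vehicle mean was 8.21 times the TMAO mean. On the log2 scale the difference was -2.58 (SE 0.87; limma p of 0.0240, adjusted p = 0.404), and between -1.72 (without vehicle replicate 1) and -3.33 (without vehicle replicate 3) when 1 library was left out. The exact two-sided permutation p was 0.1, the smallest that 3 against 3 libraries allow, and 0.167 after Benjamini-Hochberg adjustment over the 10 members.

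Hmox2, the constitutive haem oxygenase, was at 20.1, 20.8 and 19.8 FPKM in vehicle and at 17.8, 18.7 and 16.6 FPKM in TMAO. All TMAO libraries lay below all vehicle libraries, and the step was small, with a log2 difference of -0.19 (SE 0.10; limma adjusted p = 0.413). It was as large without vehicle replicate 1, at -0.19, and Hmox2 had the smallest vehicle SD of the 10 genes on the log2 scale (0.036). The step depended on the scaling of the libraries. It was -0.105 after median scaling, -0.124 after quantile normalization and -0.132 after rescaling without mitochondrially encoded genes. The ratio of Hmox1 to Hmox2 within a library was 18.7, 4.71 and 1.98 in vehicle and 0.647, 2.0 and 0.824 in TMAO. These ratios overlapped, since TMAO replicate 2 stood above vehicle replicate 3, and their log2 difference was -2.39 with an exact permutation p = 0.2, and -1.53 (exact permutation p = 0.3) without vehicle replicate 1.

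Blvrb, which encodes biliverdin reductase B, was at 10.1, 2.65 and 1.55 FPKM in vehicle and at 1.39, 1.56 and 1.59 FPKM in TMAO. The groups overlapped, and vehicle replicate 3 lay within the TMAO values. The log2 difference was -0.90 (SE 0.52; limma adjusted p = 0.422) with all libraries and -0.28 without vehicle replicate 1. The other reductase gene, Blvra, was at 5.36 ± 0.609 FPKM in vehicle, against 4.46 ± 0.630 FPKM in TMAO (SD, n = 3), also with overlap.

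Storage genes were led by vehicle replicate 1. Fth1, whose heavy chain carries the ferroxidase centre of ferritin, was at 1223, 596.6 and 450.7 FPKM in vehicle and at 416, 397 and 351 FPKM in TMAO. Every TMAO library was lower, and the vehicle libraries spread far more than the TMAO libraries, with SDs of 410 and 33.5 FPKM around 757 and 388 FPKM (n = 3 each). The log2 difference was -0.83 (SE 0.37; limma p of 0.0647, adjusted p = 0.404), and -0.42 (SE 0.14, adjusted p = 0.228) without vehicle replicate 1.

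Ftl1, whose light chain supports the growth of the iron core, was at 1061, 308 and 191 FPKM in vehicle and at 145, 173 and 154 FPKM in TMAO. The groups again did not overlap, and the distance between vehicle replicate 3 and TMAO replicate 2 was small. The log2 difference was -1.33 (SE 0.61; limma p of 0.0707, adjusted p = 0.404), and -0.62 (SE 0.21, adjusted p = 0.227) without vehicle replicate 1. Ftl1 has near-identical copies that may share its reads, so its level is uncertain. The deposited table lists Ftl1-ps1 at 25.1, 6.91 and 5.77 FPKM in vehicle, against 4.31, 5.10 and 5.10 FPKM in TMAO, with the same library highest. Transcripts of both ferritin genes carry the 5′ UTR hairpin printed above.

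The light chain was scarcer than the heavy chain in each library. The ratio of Ftl1 to Fth1 was 0.868, 0.517 and 0.423 in vehicle and 0.350, 0.437 and 0.439 in TMAO. The ratios overlapped between groups, vehicle replicate 1 was highest, and the log2 difference of -0.50 had an exact permutation p = 0.3 and was -0.20 without that library.

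Trf and Tfrc lay on opposite sides. Trf, which encodes the iron carrier transferrin, was at 209, 178 and 101 FPKM in vehicle and at 59.0, 63.2 and 34.8 FPKM in TMAO. The groups were well apart, and here vehicle replicate 1 was only 1.17 times the next library, unlike in Hmox1, where it was 3.82 times the next. With means of 162 ± 55.4 and 52.3 ± 15.3 FPKM (SD, n = 3 each), the log2 difference was -1.60 (SE 0.35; limma p of 0.00365, adjusted p = 0.404). It was -1.39 (SE 0.34, adjusted p = 0.189) without vehicle replicate 1 and -0.98 with vehicle replicate 3 as the remaining vehicle library. With that 1 vehicle library, Hmox1 was at -1.07, Ftl1 at -0.28, Fth1 at -0.22 and Hmox2 at -0.16. Cp was at -0.054, Blvrb at -0.024, Slc40a1 at -0.0016, Slc11a2 at 0.037 and Tfrc at 0.18.

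Tfrc, the receptor that takes up transferrin with its iron, was at 14.9, 24.3 and 24.6 FPKM in vehicle and at 33.3, 25.9 and 25.6 FPKM in TMAO. Vehicle replicates 2 and 3 lay close to TMAO replicates 2 and 3, and the lowest vehicle and highest TMAO library carried most of the difference. The log2 difference was 0.42 (SE 0.23; limma adjusted p = 0.413), and 0.19 (SE 0.12, adjusted p = 0.465) without vehicle replicate 1. The 4 sites of the hairpin pattern lie in the 3′ UTR of 1 of its 3 protein-coding transcripts.

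The ratio of Trf to Tfrc was 14.0, 7.32 and 4.11 in vehicle and 1.77, 2.44 and 1.36 in TMAO, without overlap. The log2 difference of this ratio was -2.02, with an exact permutation p = 0.1 that is 0.3 after adjustment over the 4 ratios compared, and it was -1.58 without vehicle replicate 1.

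Genes of membrane transport showed no common direction. Slc11a2, the endosomal iron importer DMT1, was at 9.90, 8.72 and 9.05 FPKM in vehicle and at 8.88, 9.58 and 9.5 FPKM in TMAO. It had the smallest log2 difference of the 10 genes, 0.015 (SE 0.097; limma adjusted p = 0.933) and 0.062 without vehicle replicate 1, and the sign turned when vehicle replicate 2 (-0.021) or TMAO replicate 2 (-0.0035) was left out. Slc40a1, the exporter ferroportin, was at 2.97, 0.704 and 0.751 FPKM in vehicle and at 0.829, 0.602 and 0.826 FPKM in TMAO. Apart from vehicle replicate 1 the 5 libraries overlapped fully, and the log2 difference turned from -0.38 to 0.018 without it. The ratio of Tfrc to Slc40a1, import against export, was 5.03 in that library and 31.0 to 43.0 in the other 5. With 1 FPKM added to both genes, the log2 difference of this ratio was 0.80 (exact permutation p = 0.3). Without vehicle replicate 1 it was 0.17 (exact permutation p = 0.4). Slc40a1 was low enough for the added value to matter, and with 0.1 FPKM added the difference over all 6 libraries was 1.03.

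Cp, the ferroxidase that works with ferroportin and that astrocytes carry on their surface, was at 24.4, 6.99 and 3.62 FPKM in vehicle and at 2.87, 5.11 and 2.73 FPKM in TMAO. The groups overlapped, as TMAO replicate 2 stood above vehicle replicate 3. The log2 difference was -1.14 (SE 0.62; limma adjusted p = 0.413), and -0.45 (SE 0.31, adjusted p = 0.487) without vehicle replicate 1. Astrocyte markers summed to 1027 FPKM in vehicle replicate 1 and to 657.5 to 751 FPKM in the other 5 libraries. Of the 8 markers 6 were highest in vehicle replicate 1, among them Gfap at 380 FPKM against 99.7 to 190 FPKM. Slc1a2 and Aldh1l1 lay there within the range of the other 5 libraries. The part of astrocytes in the Cp level was not tested.

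Of the 10 genes, 5 were marked as significant in the authors' deposited table, all lower, where 6.38% of the 36758 listed genes carried the mark and 5.06% carried it as lower. The authors' deposited table gave Trf a log2 ratio of -1.63 with q = 0.00579 and Hmox1 a log2 ratio of -3.04 with q = 0.0117, the 2 members under a q of 0.05, where 1.09% of listed genes were. Ftl1 (-1.72, q = 0.116), Cp (-1.71, q = 0.194) and Blvrb (-1.65, q = 0.212) carried the mark too in the authors' deposited table. All 2346 marked genes, and no others, had an unadjusted p under 0.05 together with a log2 ratio of at least 1 in either direction in the authors' deposited table, and Fth1, at -0.96 and p of 0.0170 there, was not marked. No source used here names the test behind those values. Ftl1, Cp and Blvrb are the genes whose log2 differences were -0.62, -0.45 and -0.28 without vehicle replicate 1.

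Cell type markers moved beside these genes. The 10 oligodendrocyte markers summed to 1052, 905 and 835 FPKM in vehicle and to 699, 439 and 484 FPKM in TMAO, with 9 of the 10 lower without overlap, beside 17.5% of all genes. Trf relative to that sum was 0.198, 0.197 and 0.121 in vehicle and 0.0844, 0.144 and 0.0720 in TMAO. The groups, which did not overlap in Trf itself, overlapped in this ratio, with a log2 difference of -0.79 and an exact permutation p = 0.2, and of -0.67 (exact permutation p = 0.3) without vehicle replicate 1.

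Hmox1 was set against the markers of the phagocytes that express it. Relative to the 10 summed microglia markers it was 1.40, 0.691 and 0.371 in vehicle and 0.102, 0.331 and 0.110 in TMAO. This ratio did not overlap, with a log2 difference of -2.13 (exact permutation p = 0.1) that was -1.65 (exact permutation p = 0.2) without vehicle replicate 1. Relative to the 7 border-associated macrophage markers Hmox1 was 5.30, 6.27 and 8.62 in vehicle and 3.81, 5.96 and 3.82 in TMAO, which overlapped. With 1 FPKM added to Hmox1 and to the low marker sum, the log2 difference was -0.70 (exact permutation p = 0.2). It was -0.81 without vehicle replicate 1. The macrophage sum itself was 70.8, 15.7 and 4.55 FPKM in vehicle, against 3.03 to 6.26 FPKM in TMAO, with Ms4a7 at most 0.497 FPKM in any library.

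Tfrc relative to the 10 summed neuron markers was 0.0384, 0.0267 and 0.0256 in vehicle and 0.0316, 0.0262 and 0.0290 in TMAO. The groups overlapped in this ratio although Tfrc itself did not, and the log2 difference was -0.060 (exact permutation p = 0.9), turning to 0.14 without vehicle replicate 1, the library in which the neuron markers were split. These 4 ratios to marker sums were chosen after the levels were seen, and the first 3 had an exact permutation p of 0.267 after adjustment over the 4. The 6 erythroid markers, among them the globin genes, summed to 602, 267 and 196 FPKM in vehicle and to 80.7 to 110 FPKM in TMAO. The 7 neutrophil markers summed to 120.5, 57.4 and 13.9 FPKM in vehicle and to 3.39 to 7.61 FPKM in TMAO. The part of red cells and neutrophils in the levels of Hmox1, Ftl1 and Fth1 was not tested.

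**Figure D3:**
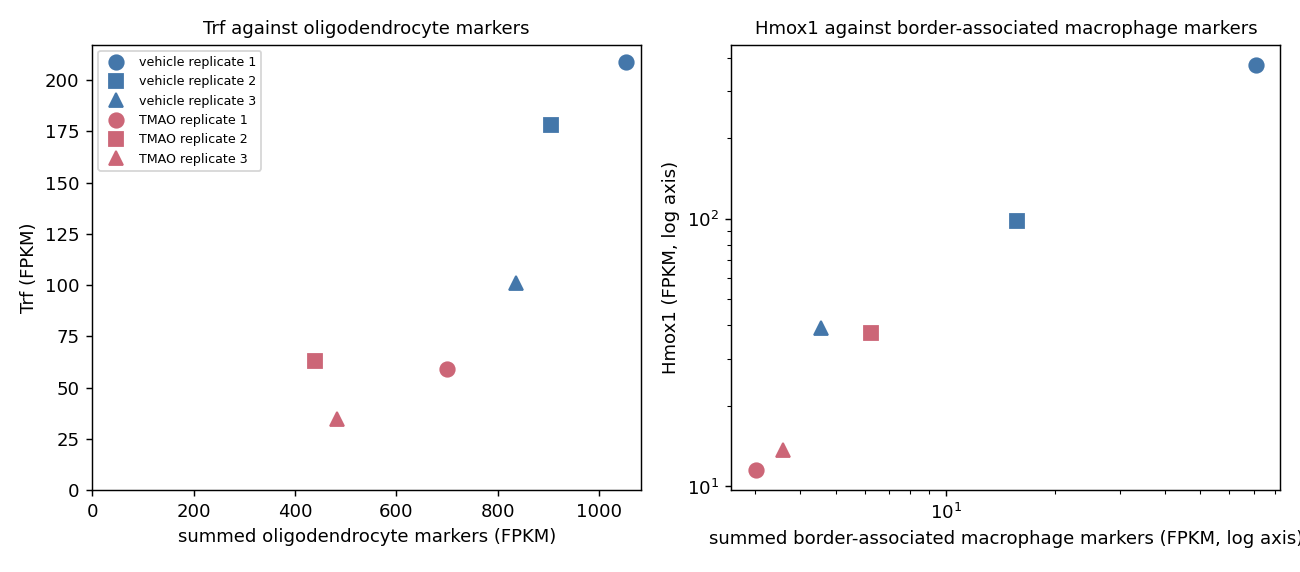
Left, Trf against the sum of 10 oligodendrocyte markers (FPKM, linear axes); right, Hmox1 against the sum of 7 border-associated macrophage markers (FPKM, log axes), with 1 point per library. Vehicle replicate 1 has the highest value on each axis, at 209 and 1052 FPKM on the left and 375 and 70.8 FPKM on the right.

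**Figure D4:**
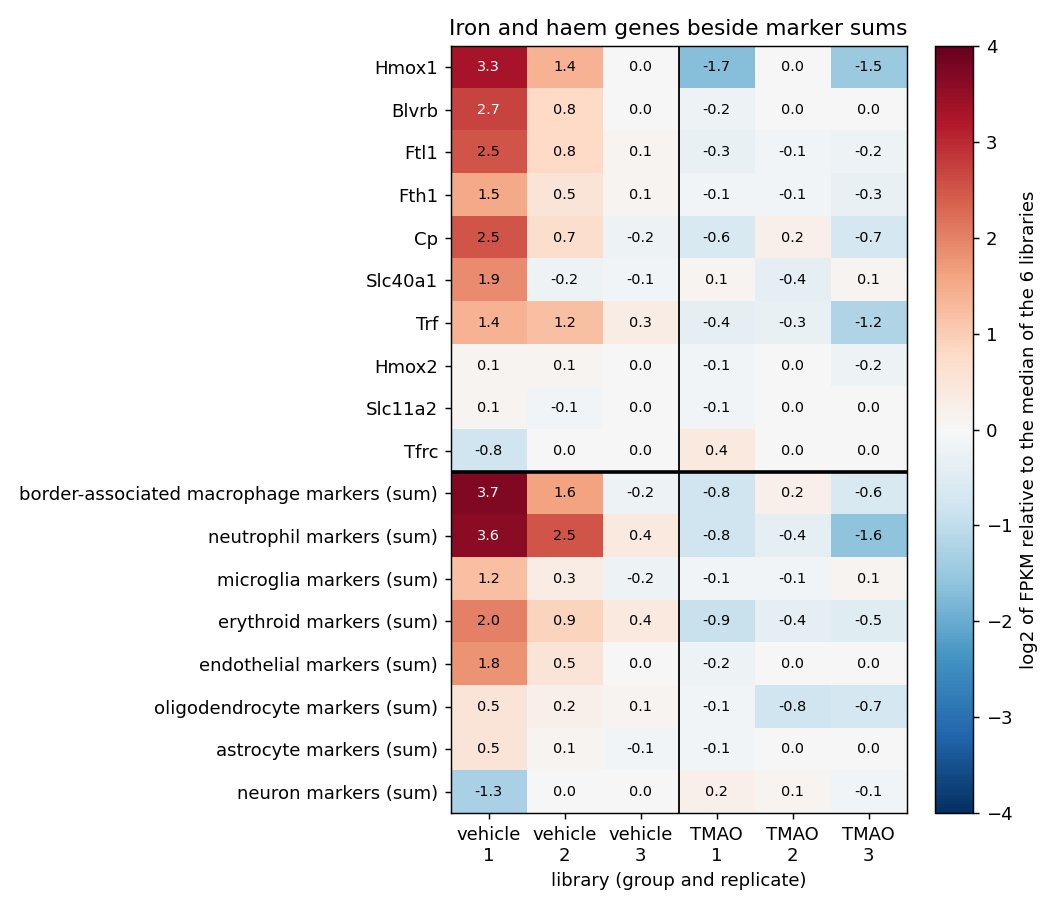
Log2 of FPKM relative to the median of the 6 libraries (colour and printed value), for the 10 genes above the thick line and for summed markers of 8 cell types below it. Hmox1 reaches 3.3 in vehicle replicate 1 and the macrophage markers 3.7, while Hmox2 and Slc11a2 stay within 0.2 in either direction, to 1 decimal, in all 6 libraries.

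The patterns of 4 members over the 6 libraries were matched with all other tested genes that have an assigned symbol, by the root mean square distance of centred log2(FPKM + 1) values. Nearest to Hmox1 were Lilr4b, a leukocyte receptor gene (distance 0.205), the chemokine gene Ccl2 (0.256) and Spp1, which encodes osteopontin (0.314). Spp1 was at 1088, 277 and 71.3 FPKM in vehicle and at 28.9, 89.5 and 22.5 FPKM in TMAO, so that TMAO replicate 2 was again the highest of its group. Nearest to Trf were Ifitm6 (0.205), the metallothionein gene Mt2 (0.240) and the guanylate-binding protein gene Gbp2 (0.254). Only the 3 nearest genes were listed, and the distance counts the size of a change as well as its course. The place of myelin genes was therefore not examined. Nearest to Fth1 were the NF-kB subunit gene Rela (0.0511), Ifi35 (0.0525) and Arrdc3 (0.0527), and nearest to Slc40a1 were Tspan9 (0.0551), Tspan14 (0.0593) and Abcc4 (0.0635). The 6 libraries share the shift of vehicle replicate 1, which a distance of this kind counts too.

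Other genes of iron and haem handling, grouped in 6 lists, mostly lay closer to 0 than the 10 genes. No gene of any list passed the adjusted threshold by limma. Among regulators of iron and ferritin, 8 of 10 tested genes were lower, with a median of -0.24 on the log2 scale, and of -0.096 once vehicle replicate 1 was left out. Aco1, which encodes iron regulatory protein 1, was at 9.30 ± 2.29 FPKM in vehicle, against 6.99 ± 0.371 FPKM in TMAO (log2 difference -0.35, and -0.17 without vehicle replicate 1). Ireb2, for iron regulatory protein 2, was chosen after its values were seen and was at -0.073. The iron chaperone genes Pcbp1 and Pcbp2 had log2 differences of -0.45 and -0.27, which became -0.24 and -0.16 once vehicle replicate 1 was left out. Groups did not overlap in 4 of the 10, all lower (Pcbp1, Pcbp2, Aco1 and Smad7), beside 17.5% of all genes.

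Among other iron transporters and reductases 5 of 7 tested genes were lower, with a median of -0.086 that was 0.091 without vehicle replicate 1. Slc39a14, a metal transporter that takes up iron not bound to transferrin, was at 17.9, 13.5 and 7.13 FPKM in vehicle and at 5.53, 6.77 and 5.22 FPKM in TMAO. Its groups did not overlap, and the log2 difference was -0.94 (SE 0.31; limma p of 0.0232, adjusted p = 0.404), and -0.67 without vehicle replicate 1. Lcn2, a secreted protein that binds iron-carrying siderophores, was at 149 FPKM in vehicle replicate 1 and at 9.13 to 26.4 FPKM in the other 5 libraries (log2 difference -1.45, and -0.54 without that library). The endolysosomal channel gene Mcoln1 was at 0.34, and at 0.095 without vehicle replicate 1.

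Haem synthesis had 7 of 10 genes lower and 3 higher, with a median of -0.081, and of -0.10 without vehicle replicate 1. Abcb10, a mitochondrial transporter needed for haem synthesis in red cell precursors, was at 5.92, 6.31 and 6.38 FPKM in vehicle and at 4.94, 4.51 and 4.80 FPKM in TMAO. It is 1 of the few genes here in which vehicle replicate 1 did not stand apart, and the log2 difference was -0.32 (SE 0.094; limma p of 0.0130, adjusted p = 0.404), and -0.35 without that library. Ppox, for the next to last enzyme of the pathway, was at 6.75 ± 1.05 FPKM in vehicle, against 9.15 ± 0.914 FPKM in TMAO (log2 difference 0.39), and Uros, an earlier enzyme, was at 0.30, with 0.33 and 0.20 without vehicle replicate 1. Both were higher in every TMAO library, and so 2 of the 10 were higher without overlap and 2 lower, beside 12.1% and 17.5% of all genes.

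Haem and haemoglobin uptake and transport had 7 of 8 tested genes lower with all libraries and 3 of 8 without vehicle replicate 1, with medians of -0.16 and 0.018. The haem transporter gene Slc48a1 was at -0.27, Abcb6 at -0.35 and Blvra at -0.22, and without vehicle replicate 1 they were at -0.11, -0.17 and -0.15. Iron-sulphur cluster assembly was split, 5 lower and 4 higher, with a median of -0.031 that was 0.013 without vehicle replicate 1. Fdx2, Glrx5 and Lyrm4 were at 0.68, -0.18 and 0.12, and at 0.39, -0.16 and 0.11 without that library.

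The list of NRF2, BACH1 and genes they control lay nearest to the 10 genes. NRF2 activates Hmox1, the ferritin genes and Slc40a1, and BACH1 represses them until haem binds it. In this list 11 of 12 genes were lower, with a median of -0.87 on the log2 scale. Leaving out vehicle replicate 1 gave a median of -0.51, again with 11 of 12 lower. Groups did not overlap in 7 of the 12, all lower, beside 17.5% of all genes. Gsr, which encodes glutathione reductase, was at 21, 14.0 and 12 FPKM in vehicle and at 8.44, 10.6 and 7.93 FPKM in TMAO (log2 difference -0.71, limma p of 0.0176, adjusted p = 0.404), with a log2 difference of -0.49 without vehicle replicate 1. Txnrd1, for thioredoxin reductase, and Srxn1, for sulfiredoxin, had log2 differences of -1.11 and -1.06, which were -0.73 and -0.67 without vehicle replicate 1. TMAO replicate 2 was the highest TMAO library in all 3 genes, as it was in Hmox1. The genes of the 2 regulators were chosen after their values were seen. Bach1 was at 17.7, 6.05 and 3.80 FPKM in vehicle and at 2.90, 3.15 and 3.07 FPKM in TMAO, also lower without overlap. Its log2 difference was -1.09, and -0.53 without vehicle replicate 1. Nfe2l2, which encodes NRF2, overlapped between groups, at -0.72 and at -0.20 without that library. The activity of either protein was not tested.

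**Figure D5:**
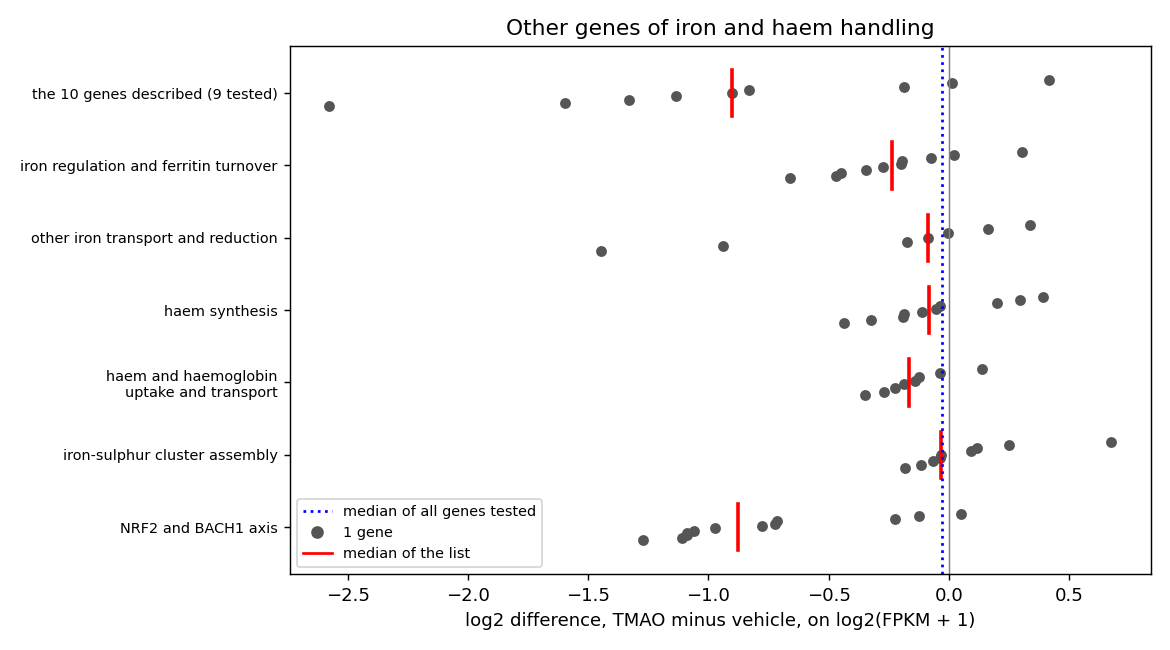
Log2 difference of TMAO minus vehicle on log2(FPKM + 1) for each tested gene (grey points) of the 10 genes and of 6 further lists, with the median of each list (red bar) and of all genes tested (blue dotted line, -0.027). The NRF2 and BACH1 list has a median of -0.87, close to the -0.90 of the 9 tested members, and the other lists lie between -0.24 and -0.031.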

How the data were processed

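The authors deposited FPKM for 36758 genes in 6 libraries, per the file headers, in 2 tables that differ only in row order. Per the submitters' processing notes, cutadapt 1.9 was the trimming tool and mm9 the build, while the aligner, quantifier and annotation were not named in any source used. Of the gene IDs, 99.6% are in GENCODE M21, whose GRCm38 coordinates are printed. Further deposited columns are a ratio (fold) of TMAO over vehicle by the authors, the log2 of it, a p-value and a q-value. The tables give no counts, so depth is unknown: of low values in genes with 1 transcript, 19.3% to 20.5% lay within 2% of a whole step, and reads were not recovered.

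Libraries were matched to groups by the names in the labels. Genes at 1 FPKM or more in at least 3 libraries (14206) were tested on log2(FPKM + 1) with limma 3.58.1 in R 4.3.3 (trend and robust estimation, two-sided, Benjamini-Hochberg over all genes, threshold 0.05). A pseudocount of 1 understates changes of low genes. Ratios used exact permutation tests. Their log2 differences and p-values were computed with 1 FPKM added to both terms, while the ratios printed for each library are of FPKM with nothing added. The 10 members and the lists of 6 pathways and 13 cell types were chosen with earlier results of these data known. A gene of the erythroid list is not reported here and was left out of its sum. Genes named were the members, the 3 smallest p of each pathway list and the 3 nearest patterns. Ireb2, Bach1 and Nfe2l2 were added after their values were seen. Alternatives covered normalization, pseudocount, filter, variance estimation, a replicate block and each library left out. Figures used matplotlib 3.10.9.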

Additional observations from a re-analysis of the deposited data

How the results depend on the processing

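No gene passed the adjusted threshold by limma in any fit with all 6 libraries or with 1 left out. At an unadjusted p under 0.05, the 1712 genes became 970 with a minimum of 5 FPKM, which tests fewer genes, and 528 to 3365 when 1 library was left out (fewest without TMAO replicate 3, most without vehicle replicate 3). The 2 members at that level became 1 to 6, and the cause was not tested. There was 1 (Trf) without vehicle replicate 2, TMAO replicate 1 or TMAO replicate 3, beside 9.12%, 5.4% and 3.72% of all genes. There were 4 without vehicle replicate 1 (beside 2437 of all genes, 17.2%) and 6 without vehicle replicate 3 (beside 3365, 23.7%). With 1 library left out Slc40a1 ranged from -0.59 to 0.018, turning without vehicle replicate 1, and Slc11a2 from -0.021 to 0.062, turning without vehicle replicate 2 or TMAO replicate 2. The ratio of Tfrc to neuron markers turned without vehicle replicate 1 (0.14). With vehicle replicates 1 and 2 both left out, a fit chosen after seeing the data in which the lone vehicle library is assumed to vary like the TMAO libraries, 1 gene passed, and the smallest adjusted p of a member was 0.481 by limma. The 4 ratios between members kept their direction in every alternative run. Replicate numbers follow the sample titles, while the deposited column names call replicate 3 M5 in vehicle and T4 in TMAO. Deviations of libraries with the same replicate number correlated at -0.216, -0.064 and -0.015, so no pairing by that number was seen. With 3 libraries per group and vehicle replicate 1 far from the others, this check cannot exclude pairing. The replicate block gave 1259 genes (8.86%) and 3 members at an unadjusted p under 0.05, with Fth1 as the third. Depth is unknown, so the spread between 3 libraries limits the precision of each value.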
